A study of Drosophila melanogaster with 4 samples.

Results

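Broad LSD1 domains are the regions of the combined list that are wider than 10 kb and lie on chromosome arms 2L, 3L, 3R or X. Of the 9853 enriched regions of that list, 720 met the rule, out of 7741 on the 4 arms. They were chosen by their width in a list called from the same libraries that are described below, so their widths, scores and overlaps are given as a description and no test was made. The material was nuclei of whole larvae of the third instar of the wild-type fly strain Oregon-R-modENCODE, with no mutation or treatment. Chromatin was precipitated with the LSD1 antibody Q3430 in 2 ChIP libraries, replicates 1 and 2, and the labels assign each its own input library of unselected chromatin as control. Nothing in the labels tells if separate batches of larvae were used for the replicates, so differences between them may be technical. A whole larva mixes many tissues, so a domain cannot be assigned to a cell type, and the lists cannot show whether the same cells carried LSD1 along the whole of a domain.

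LSD1 is a lysine demethylase that strips mono- and dimethyl marks from lysine 4 of histone H3, marks that go with enhancers and active promoters. It works as a partner of CoREST and of histone deacetylases. In Drosophila it is encoded by Su(var)3-3, a gene found as a suppressor of position-effect variegation, and it is known for its part in forming heterochromatin and in the germ line. Chromatin factors are often mapped as short sites at promoters and enhancers. A region of enrichment that runs on for many kilobases is a different shape of signal. The domains below have that shape in the combined list. For 177 of the 720 neither replicate list had a region over 10 kb, and 41.8% were in several pieces in both.

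The authors deposited 3 lists of enriched regions, 1 for each replicate and 1 combined list for the pair. Each region has a start, an end and one score from the authors, whose unit no header states. On the 4 arms the combined list had 7741 regions, replicate 1 held 4499 and replicate 2 held 6270. No list gives read numbers, so the depth behind each region is unknown. Positions are 1-based and refer to FlyBase release 5 of the genome. Genes and sequences at these positions were not analysed here, since no genome or annotation of that release was used.

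The domains were few among the regions but held much of the enriched sequence. They made up 9.30% of the regions of the combined list on the 4 arms and 45.5% of their bases. Together they spanned 15.0 Mb, which is 15.4% of the 97.9 Mb of the arms. The median width was 16171 bp, the middle 50% lay between 12687 and 23754 bp, and the widest domain reached 119251 bp. Of the 720, 412 were over 15 kb, 257 over 20 kb, 114 over 30 kb, 28 over 50 kb, 9 over 75 kb and 2 over 100 kb. The 207 widest, all of 22073 bp or more, held 50% of the domain bases, and the 28 over 50 kb held 13.0%.

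The limit of 10 kb fell in a continuous range of widths. The 3 domains just above it were 10005 bp wide on 3R from 26388068 to 26398072, 10019 bp on 3L from 11507674 to 11517692, and 10027 bp on 2L from 18517454 to 18527480, with scores of 0.75, 0.45 and 0.63. The 3 regions just below it were 9989 bp wide on 3L from 7792870 to 7802858, 9983 bp on X from 11811506 to 11821488, and 9975 bp on X from 13779554 to 13789528, with scores of 1.13, 0.79 and 0.73. The largest score of these 6 belonged to a region just below the limit.

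**Figure D1:**
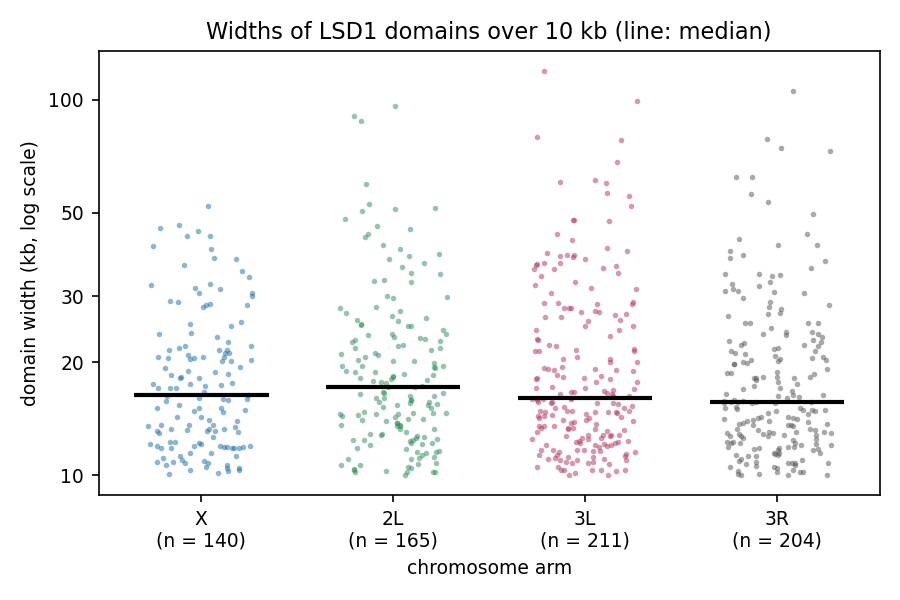
Width of each of the 720 domains in kb on a log scale, by chromosome arm. Each point is 1 domain and the black line is the median of the arm. The medians lie between 15649 bp on 3R and 17185 bp on 2L, and X holds 1 domain over 50 kb.

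The arms differed more in how many domains they held than in how wide these were. X held 140 domains, or 6.24 per Mb, which covered 12.03% of its sequence. Arm 2L held 165 (7.17 per Mb, 15.5% of the arm), 3L held 211 (8.60 per Mb, 18.9%) and 3R held 204 (7.31 per Mb, 14.8%). Regions of any width numbered 1591 on X, 1812 on 2L, 2066 on 3L and 2272 on 3R. Domains made up 8.80%, 9.11%, 10.2% and 8.98% of these, beside 9.30% over the 4 arms. The low number of domains on X thus went with a low number of regions of any width. The median widths were 16319 bp on X, 17185 bp on 2L, 16027 bp on 3L and 15649 bp on 3R. At the upper end the arms parted. X held 1 domain over 50 kb and none over 75 kb, and its widest spanned 52097 bp. Over 50 kb there were 8 on 2L, 11 on 3L and 8 on 3R.

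The median score of the domains was close on all arms, 0.84 on X, 0.84 on 2L, 0.83 on 3L and 0.84 on 3R. The lowest score on X was 0.51, and the lowest on the 3 autosome arms was 0.38. Over all domains the scores had a median of 0.84 and ran up to 1.65, and the regions of 10 kb or less on the same arms had a median of 0.42. The 720 regions of the 4 arms with the largest scores included 411 of the domains, and the top 100 included 50. Wider domains tended to have larger scores, with Spearman's rho of 0.36 across 720 domains of 1 list. This was not particular to domains, since rho was 0.37 in the regions of 10 kb or less and 0.51 in all regions of the 4 arms. The median score was 0.72 for domains of 10 to 12 kb, 0.80 for those of 15 to 20 kb and 0.95 for the 28 over 50 kb.

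Domains often lay close to one another. Of the 716 gaps between neighbouring domains on the same arm, 160 were 10 kb or less, a share of 22.3% (exact 95% binomial interval 19.3 to 25.6, counting error only). Some were far shorter, with 52 of 1 kb or less and 14 of 100 bp or less. The shortest measured 3 bp, on 3R from 26631945 to 26631947. The median gap was 55900 bp, the 10th percentile 2735 bp and the 90th 292404 bp. Their mean was 110939 bp with an SD of 151459 bp, so the SD was 1.37 times the mean. By arm the median gap was 75065 bp on X, 39702 bp on 2L, 42850 bp on 3L and 66955 bp on 3R. Gaps of 10 kb or less made up 15.8% on X, 26.8% on 2L, 26.2% on 3L and 19.2% on 3R.

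**Figure D2:**
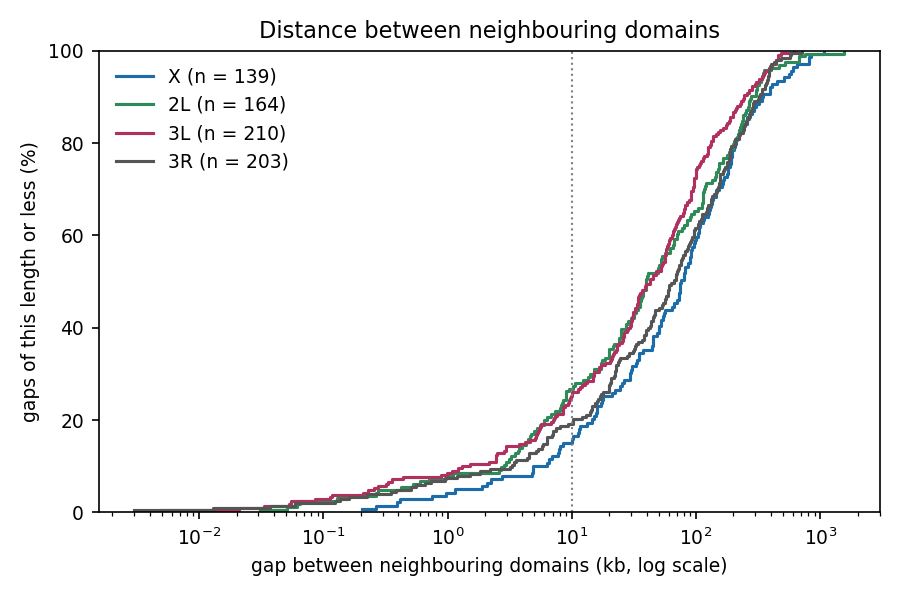
Cumulative share of the gaps between neighbouring domains, in percent, against gap length in kb on a log scale, 1 line for each arm. The dotted line marks 10 kb, where the share is 15.8% on X and 26.8% on 2L, and the longest gaps are on 2L and X.

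Chaining domains that lay 10 kb or less apart gave 119 chains, which took in 279 of the 720 domains, or 38.8%. The other 441 stood alone. Most chains were pairs: 90 had 2 domains, 20 had 3, 6 had 4 and 3 had 5. A chain could fill a stretch longer than any single domain. The longest chain spanned 204021 bp on 2L from 14364770 to 14568790 with 4 domains, which filled 96.9% of it, and its last member was the domain of 96413 bp. A chain of 4 on 3R from 786014 to 954334 spanned 168321 bp. Each chain of 5 was shorter. These lay on 2L from 18456052 to 18576892 (120841 bp), on 3L from 14265472 to 14362488 (97017 bp) and on 2L from 8825572 to 8920716 (95145 bp).

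The chains were not all of strong domains. In the chain of 5 on 2L from 8825572 the scores ran from 0.38 to 0.66, all below the median domain, and replicate 1 covered 58.6% and replicate 2 covered 79.9% of its span. In the chain of 4 on 3R from 786014 they ran from 0.91 to 1.44, and the replicates covered 87.8% and 89.4%. Domains in chains had a median score of 0.85 and were 18115 bp wide at the median, and lone domains had 0.83 and 15345 bp. In replicate 1 they were split into 2.00 pieces on average and lone domains into 1.78, and in replicate 2 into 2.39 and 2.36.

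The 96 full windows of 1 Mb held 7.39 ± 3.17 domains (SD over windows), with a median of 8 and a range of 0 to 15. The variance was 1.36 times the mean, and by arm 1.17 times on X, 2.18 on 2L, 0.84 on 3L and 1.15 on 3R. Arm 2L thus held the most uneven counts. It had the richest windows, from 8 to 9 Mb with 15 domains and from 7 to 8 Mb with 14, and also 2 of the 3 windows with none. On 3L the windows from 14 to 15, 2 to 3 and 16 to 17 Mb followed, with 13, 12 and 12 domains, and X also had a window with 12.

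The windows without a domain lay on 2L from 15 to 16 and from 22 to 23 Mb, and on 3L from 23 to 24 Mb. They still held narrower regions of the combined list, which covered 15.7%, 13.3% and 7.80% of them. Across the 96 windows Spearman's rho between the share covered by domains and the share covered by narrower regions was 0.18. The window on 3L from 2 to 3 Mb held 12 domains over 21.7% of its sequence and narrower regions over 10.4%. On 2L from 7 to 8 Mb these shares were 25.7% and 31.2%. Both shares come from 1 list and cannot overlap, so bases in domains leave less room for narrower regions. How far this lowers rho was not tested, and no conclusion is drawn from the size of rho. How many bases of a window could be called is unknown.

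The 5 longest stretches between domains lay on 2L and X. The longest ran for 1558603 bp on 2L from 14689803 to 16248405. It and the longest chain both lay between 14 and 17 Mb of 2L. It held 99 narrower regions, which covered 14.5% of it, and replicate 1 covered 3.91% and replicate 2 covered 7.96%. The next 4 were all on X. They ran from 21156589 to 22236507 (1079919 bp), from 4935547 to 5776623 (841077 bp), from 3745949 to 4562179 (816231 bp) and from 15715213 to 16531073 (815861 bp). The last of these held narrower regions over 26.6% of its length, so a stretch without domains was not a stretch without enrichment. X had 9 of the 18 gaps over 500 kb.

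Towards the ends of the arm sequences the domains stopped at different distances. The last domain of 2L ended 1140 kb and that of 3L 1658 kb before the end of the sequence, those of X and 3R 166 and 10.1 kb before it. At the other end the first domain began 67.6 kb into X, 51.7 kb into 2L, 51.1 kb into 3L and 270 kb into 3R. The ends are named by coordinate only. The same end can be the centromere side on one arm and the telomere side on another, so the arms are not compared by end.

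Both replicate lists marked every domain. All 720 were overlapped by at least 1 region of each list (100%, exact 95% binomial lower limit 99.5), and 37.8% of all 7741 regions of the 4 arms were. A wide region is more easily overlapped, and the combined list was made from the same libraries. Nothing is therefore read from the share of 100%, from its limit or from this difference. Replicate 1 covered 90.6% and replicate 2 covered 89.7% of the domain bases, a mean of 90.2 ± 0.6% (SD, n = 2). Of the bases, 83.7% lay in both lists and 3.34% in neither. Of the domains, 692 (96.1%) were covered to at least 50% in each list, and of all regions of the 4 arms 31.4% were. To at least 90% in each list, 295 domains (41.0%) were covered, and of all regions of the 4 arms 6.89% were.

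The replicates broke the domains into pieces, replicate 2 more than replicate 1. A piece is a region of the replicate list that overlaps the domain. Domains had 1.86 pieces on average in replicate 1 and 2.37 in replicate 2, a mean of 2.12 ± 0.36 (SD, n = 2). In replicate 1, 374 domains (51.9%) were a single piece, and in replicate 2, 213 (29.6%) were. Of all regions of the 4 arms that the list overlapped, 83.3% and 78.9% were a single piece, and most of the overlapped regions were 10 kb or less wide. Only 168 (23.3%) were a single piece in both, 206 in replicate 1 alone and 45 in replicate 2 alone, and 41.8% were in several pieces in both. The number of pieces was larger in replicate 2 for 323 domains, larger in replicate 1 for 14.2% of the domains and the same for 295. Across the 720 domains the numbers went together with Spearman's rho of 0.48. When replicate regions 500 bp or less apart were joined, the share in a single piece rose to 63.2 ± 6.5% (SD, n = 2), against 40.8 ± 15.8% as deposited.

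**Figure D3:**
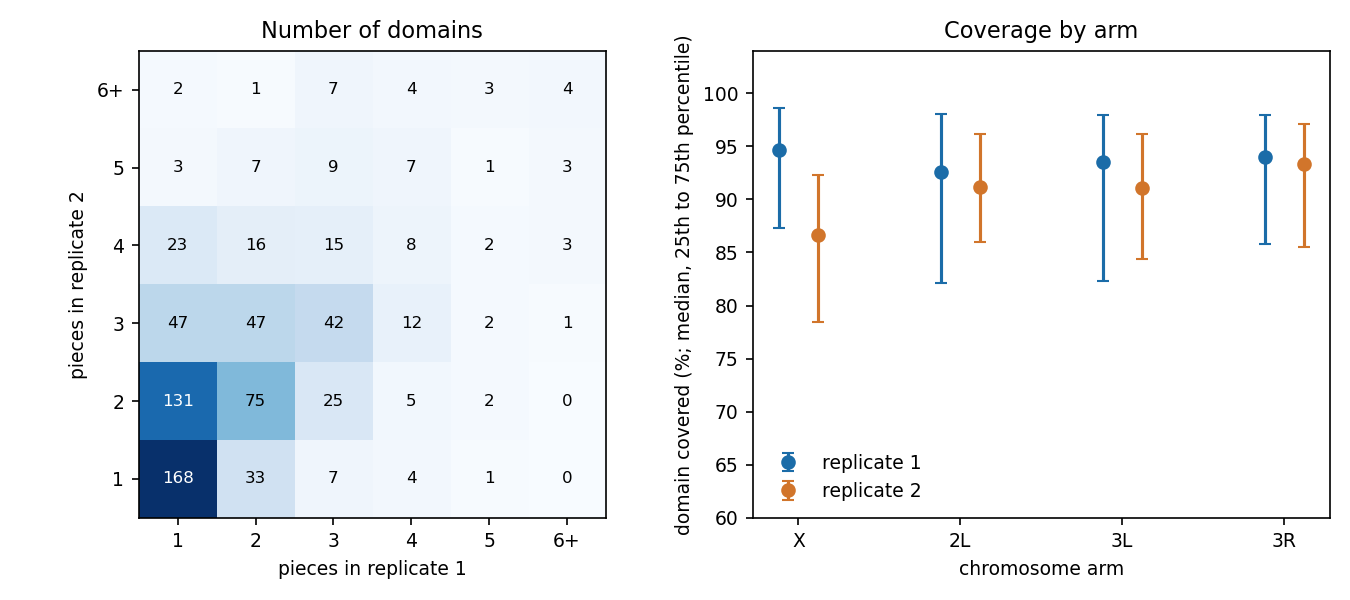
Left, number of domains by pieces in replicate 1 and pieces in replicate 2, where 6+ stands for 6 or more. Right, percent of a domain covered by each replicate list, by arm, as median (point) and 25th to 75th percentile (bar), on an axis that starts at 60%. The largest cell holds the 168 domains that are 1 piece in both, and the medians on X are 94.6% in replicate 1 and 86.7% in replicate 2.

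The score of a domain went with how whole it was. In the 180 domains with the lowest scores (0.38 to 0.68) replicate 1 had 2.58 pieces on average and replicate 2 had 2.92, and 37 and 17 were a single piece. In the 180 with the highest scores (1.00 to 1.65) the averages were 1.22 and 1.59 pieces, and 150 and 102 were a single piece. The median covered share was 77.3% and 82.4% in the lowest class, and 98.3% and 95.5% in the highest. Spearman's rho between score and number of pieces was -0.52 in replicate 1 and -0.44 in replicate 2, although wider domains, which tend to score higher, had more pieces (rho of 0.18 and 0.27). The score of the combined list and the pieces come from the same reads, so these are descriptions.

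The widest class had more pieces than the narrowest but fewer breaks per length. Domains over 50 kb had 2.54 pieces in replicate 1 and 4.11 in replicate 2, and those of 10 to 12 kb had 1.504 and 1.91. Breaks inside the domain came to 0.22 and 0.45 per 10 kb in the domains over 50 kb, and to 0.45 and 0.82 in those of 10 to 12 kb. The classes between did not form a steady trend in replicate 1. Domains of 30 to 50 kb had 2.71 pieces in replicate 1 and 3.22 in replicate 2, and 0.45 and 0.59 breaks per 10 kb. The share covered was also larger in the widest class, with medians of 97.1% in replicate 1 and 95.7% in replicate 2, beside 90.3% and 86.4% in the narrowest.

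Many domains were not broad by the same limit in a single replicate. A region over 10 kb of its own overlapped 505 domains (70.1%) in replicate 1 and 407 (56.5%) in replicate 2. Both lists had one for 369 domains (51.2%), replicate 1 alone for 136 and replicate 2 alone for 38. For 177 domains neither had one, so that these were over 10 kb in the combined list only. Those 177 had a median score of 0.61 and were 12471 bp wide at the median. The 369 had 0.98 and 22061 bp. In the other direction, 527 of the 533 regions over 10 kb of replicate 1 on these arms (98.9%) and all 449 of replicate 2 overlapped a domain. Of regions of any width, 1328 of 4499 in replicate 1 and 1705 of 6270 in replicate 2 did. Wide regions overlap more easily and the lists share their libraries, so nothing is read from this difference. In replicate 1, 13 regions ran across more than 1 domain, up to 3, and they touched 27 domains. In replicate 2 none did. Of the 52 gaps of 1 kb or less between domains, 13 were covered throughout by replicate 1 and 0 by replicate 2.

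The breaks inside domains were short. Replicate 1 left 615 breaks between pieces, with a median length of 532 bp and a range of 1 to 12641 bp. Replicate 2 left 979, with a median of 426 bp and a range of 1 to 9747 bp. Since an overlap of 1 bp makes a piece, a long bare stretch near a domain end can count as a break. Breaks of 100 bp or less numbered 103 and 181, and breaks over 2000 bp 69 and 65. The breaks took up 3.58% and 4.59% of the domain bases, while the stretches left bare at the domain ends took up 5.82% and 5.67%.

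A minority of the breaks were seen in both replicates. Of the breaks of replicate 1, 283 (46.0%) met a base that replicate 2 also left bare, and of those of replicate 2, 314 (32.1%) met one bare in replicate 1. The remaining 332 and 665 were bridged in full by the other list. Longer breaks met bare sequence more often, which their length alone favours. Of the breaks over 2000 bp 71.0% in replicate 1 and 64.6% in replicate 2 did, and of those of 100 bp or less 32.04% and 21.5%. In bases, which do not favour length in that way, 24.4% of the bases in breaks over 2000 bp of replicate 1 and 33.3% of those in breaks of 100 bp or less were also bare in replicate 2. For breaks of replicate 2 these shares were 22.9% and 18.6%. Over all domain bases 9.41% were bare in replicate 1 and 10.3% in replicate 2, and ends included, 35.6% and 32.6% of these were bare in the other.

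The 3 longest breaks of replicate 1 lay on 2L from 54206 to 66846 (12641 bp), on 3R from 9238170 to 9246229 (8060 bp) and on 2L from 19562078 to 19568761 (6684 bp). Replicate 2 left 1550, 3013 and 3679 bp of them bare and so covered part of each. The break on 2L from 54206 stopped just short of the end of its domain at 66870. Replicate 1 covered 15.8% of that domain, and 15.6% lay in 1 piece, so this break is close to a bare domain end. The 3 longest of replicate 2 lay on 2L from 11173237 to 11182983 (9747 bp) and on X from 5810836 to 5818847 (8012 bp) and from 12130762 to 12138024 (7263 bp). Replicate 1 left 472, 0 and 363 bp of these bare. These breaks were chosen after their values were seen.

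The 10 widest domains showed several patterns of breakage. The widest, on 3L from 707156 to 826406, had a break in both replicates near the same place. In replicate 1 a piece of 3780 bp ended 6.12 kb into the domain and one of 111514 bp began at 7.28 kb. In replicate 2 a piece of 3485 bp ended at 5.91 kb and the next began at 7.34 kb, and a further break at 41.7 kb split the long stretch into 34315 and 76188 bp. Only the left end of this domain was thus detached in both.

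In the second, on 3R from 5695712 to 5800912, the replicates differed most in the number of pieces among these 10. Replicate 1 had 1 piece of 102988 bp beside one of 1527 bp, while replicate 2 had 7, of which the longest was 28922 bp. The breaks of replicate 2 were short, such as those from 22.0 to 22.1 kb and from 63.726 to 63.749 kb. Covered shares were nearly the same, 99.3% in replicate 1 and 97.0% in replicate 2.

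On 2L, the domain from 14472378 to 14568790 was the one with more pieces in replicate 1 than in replicate 2, 7 and 4. Its first 12.5 kb held 3 pieces in replicate 1, and its break from 45.5 to 46.9 kb met one of replicate 2 from 46.3 to 46.8 kb. The domains on 2L from 12457440 to 12548168 and from 13070628 to 13158176 were the least broken of the 10, with 1 piece in replicate 1 and 2 in replicate 2 each. Replicate 1 reached beyond the left end of each, with regions of 92155 and 106037 bp, and replicate 2 cut off 2260 bp at the right of the one from 12457440 and 5453 bp at the left of the one from 13070628.

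The other 5 lay on 3L and 3R. On 3L from 10309858 to 10409082 replicate 1 had a piece of 77837 bp and 3 smaller ones to its right, and replicate 2 had 5 pieces with a longest of 38183 bp. On 3L from 8802054 to 8881644 replicate 1 was whole over 75942 bp, and replicate 2 had 3 smaller pieces before one that covered 79.5% of the domain. On 3R from 14875136 to 14953870 both had 3 pieces, with a first break from 45.3 to 46.0 kb in replicate 1 and from 44.5 to 44.6 kb in replicate 2, which did not meet. On 3L from 11325064 to 11403222 replicate 1 began with a piece of 33788 bp and replicate 2 with one of 33484 bp, and the breaks behind it overlapped. That domain had 5 pieces in replicate 1 and 6 in replicate 2. On 3R from 26069394 to 26143968 the main piece covered 93.0% of the domain in replicate 1 and 61.8% in replicate 2, with 2 and 5 pieces.

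**Figure D4:**
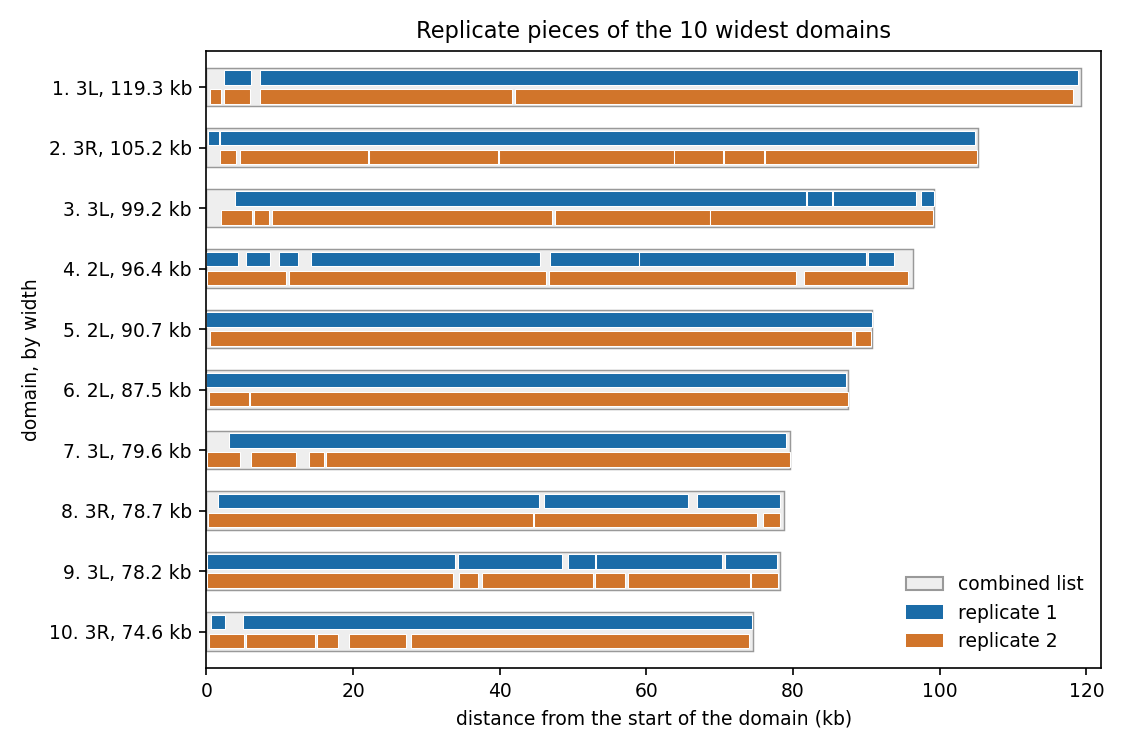
Pieces of the 10 widest domains, as distance in kb from the start of each domain. The grey bar is the domain in the combined list, and the blue and orange blocks are the regions of replicate 1 and replicate 2 within it. In domain 4 replicate 1 holds 7 pieces and replicate 2 holds 4, and in domain 2 replicate 1 holds 2 and replicate 2 holds 7.

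The domains with the largest scores were narrower and less broken than these. They lay on 2L from 158114 to 183328 (score 1.65) and from 6074178 to 6093710 (1.59), on 3L from 9363840 to 9381040 (1.55) and from 16028342 to 16045378 (1.51) and on X from 5776624 to 5797796 (1.48). Their widths ran from 17037 to 25215 bp. All 5 were a single piece in both replicates. Replicate 1 covered 99.7%, 99.5%, 97.8%, 93.9% and 99.9% of them, in the order given, and replicate 2 covered 96.8%, 98.6%, 89.4%, 91.4% and 97.9%. The widest domains that were 1 piece in both lists were those on 2L from 2886194 to 2934348 (48155 bp) and on 3L from 13221742 to 13265710 (43969 bp). Replicate 1 covered 99.1% and 97.2% of them, and replicate 2 covered 99.1% and 97.8%.

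The most broken domains had scores below the median. On 3L from 21076356 to 21124142 there was a domain 47787 bp wide with a score of 0.61. It had 10 pieces in replicate 1 and 8 in replicate 2, and its longest piece took up 29.6% and 28.9% of it. The domain on X from 12097762 to 12144246, of 46485 bp, had 9 and 8 pieces and was covered to 82.3% in replicate 1 and 48.5% in replicate 2. Next in replicate 1 came 3L from 445174 to 492944, with 8 pieces, where replicate 2 had 5. In replicate 2 the most pieces were 9, on 2L from 16588276 to 16632270, with 5 in replicate 1, and 9 on X from 1451740 to 1479704, which replicate 1 covered to 99.8% as 1 piece. After these came 2L from 477328 to 536832, with 8 pieces in replicate 2 and 6 in replicate 1.

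The 3 domains least covered in the mean of the replicates were short and had low scores. A domain of 10221 bp on 2L from 652982 to 663202 was covered to 36.4% in replicate 1 and 30.7% in replicate 2. One of 12793 bp on 3L from 13195680 to 13208472 was covered to 29.2% and 41.6%, and one of 11041 bp on 3R from 9736010 to 9747050 to 30.7% and 42.9%. Their scores were 0.40, 0.40 and 0.42. In a single list coverage could be lower still. The domain on 2L from 51670 to 66870 was covered to 15.8% in replicate 1 but to 89.5% in replicate 2. Under 50% was covered in 20 domains by replicate 1 and in 11 by replicate 2.

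On X the replicates parted. Replicate 1 covered 91.1% of the domain bases of X and replicate 2 covered 84.5%, while on 2L, 3L and 3R together they covered 90.5% and 90.9%. Replicate 1 covered the larger share of 110 of the 140 domains on X (78.6%) and of 318 of the 580 on the autosome arms (54.8%). The median difference, replicate 1 minus replicate 2, was 6.12 percentage points on X and 0.77 on the autosome arms. Domains on X had 1.81 pieces in replicate 1 and 2.74 in replicate 2, and those on the autosome arms 1.88 and 2.28. A single piece made up 57.9% of the domains of X in replicate 1 and 18.6% in replicate 2. A region over 10 kb in replicate 1 alone overlapped 29.3% of the domains of X, 14.5% of those of 2L, 16.6% of those of 3L and 17.6% of those of 3R. The replicates also differed outside the domains of X. In its gap from 15715213 replicate 1 covered 18.4% and replicate 2 covered 14.4%, and in that from 4935547 they covered 11.3% and 8.57%. Replicate 2 covered more in the gaps from 21156589 (6.47% and 9.14%) and from 3745949 (9.78% and 9.88%). The gaps named here are the longest of X. In most of its 22 full windows of 1 Mb, replicate 1 covered more of the sequence outside domains than replicate 2. On 2L replicate 2 covered more of it in most windows. The difference on X is thus not shown to be particular to domains. With 1 library behind each replicate list, a difference between replicates on X was not tested.

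Most domain edges lay outside those of the replicate lists. Of the 1440 edges, 1051 (73.0%) lay outside the outermost piece of replicate 1 and 1290 (89.6%) outside that of replicate 2. These edges lay a median of 389 bp from the outermost piece of replicate 1 and 331 bp from that of replicate 2. Replicate 1 reached beyond the edge at 382 (26.5%) and replicate 2 at 144 (10.0%). Within 500 bp of the edge lay the outermost end of replicate 1 at 899 edges (62.4%) and that of replicate 2 at 933 (64.8%).

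Coverage was lowest at both ends of a domain and nearly flat between them. With each domain divided into 10 equal parts, replicate 1 covered on average 71.2% of the first and 74.7% of the last, and replicate 2 covered 71.4% and 68.1%. The part just left of the middle was covered to 93.7% in replicate 1 and 92.8% in replicate 2. In the 500 bp just inside the edges replicate 1 covered 52.7% and replicate 2 covered 44.0%. Between 4500 and 5000 bp inside they covered 92.9% and 93.5%.

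**Figure D5:**
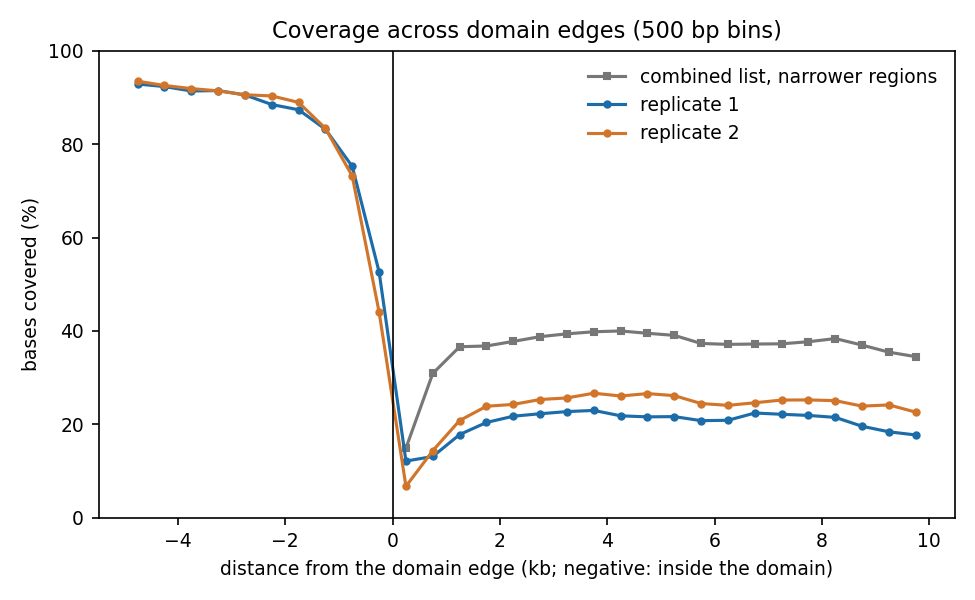
Percent of bases covered in bins of 500 bp by distance from the nearest domain edge in kb, over both ends of all domains, leaving out bins that reach another domain. Blue and orange points are replicates 1 and 2, and grey squares are narrower regions of the combined list outside the domains. Coverage climbs from 52.7% and 44.0% in the first bin inside to 92.9% and 93.5% at the left of the plot, and outside it is lowest in the bin next to the edge.

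Around the domains lay a belt of narrower regions. Regions of 10 kb or less of the combined list covered 29.9% of the bases up to 2 kb from a domain, 39.7% of those from 2 to 5 kb and 36.3% of those from 5 to 10 kb. Farther out the share was 30.3% from 10 to 20 kb, 22.7% from 20 to 50 kb, 16.5% from 50 to 100 kb and 15.0% beyond 100 kb. In both replicate lists too the share was largest from 2 to 5 kb and smallest beyond 100 kb. From 2 to 5 kb replicate 1 covered 22.5% and replicate 2 covered 26.2%, and beyond 100 kb they covered 7.65% and 8.87%. Up to 2 kb from a domain replicate 1 covered 15.9% and replicate 2 covered 16.5%, so the dip next to the edge was in all 3 lists. In the combined list a region that touched a domain would be part of it. Whether this lowers the share next to the edge was not tested.

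Counted by gap, narrower regions were densest in gaps of 10 to 50 kb. Gaps of 1 to 10 kb held 11.7 narrower regions per 100 kb, those of 10 to 50 kb held 13.7, those of 50 to 150 kb held 10.4 and those over 150 kb held 7.52. The covered share in the combined list was 33.5%, 38.2%, 27.8% and 18.7%. No gap of 1 kb or less held a region, and 57 of the 108 of 1 to 10 kb held none. The 183 gaps over 150 kb held 71.3% of all bases between domains and 4260 of the narrower regions.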

How the data were processed

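LSD1 was mapped by ChIP-seq in 2 ChIP libraries, each with its own input. The submitters' processing notes list Bowtie 0.12.7. The authors deposited enriched regions with 1 score each, and no header gives a unit for the deposited score. The build is FlyBase release 5, per the file headers. Peak caller, threshold, input scaling and combination of replicates are not given in the sources.

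Regions marked as enriched were read from the 3 lists. Widths, gaps, chains (10 kb), windows (1 Mb) and overlaps (at least 1 bp) were computed in Python 3.11.15 with pandas 2.3.3, numpy 2.4.6 and scipy 1.17.1. Arm lengths are those of the file headers. The interval code was tested on simulated data (20 lists). No test of significance was made, since the width rule used the same libraries. Intervals cover counting error only, and the depth per sample is unknown.

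The members, comparisons and named domains were chosen with earlier results of these data known. Named are the 10 widest domains, the 5 with the largest score, the 3 with the most pieces in each replicate, the 3 least covered, the 2 widest in 1 piece in both, the 3 on each side of 10 kb, the 5 largest chains, the 5 longest gaps and the 5 richest windows. Alternatives covered the width limit, joining, the arms, the score, distances, window sizes and each replicate. Input libraries were not analysed on their own.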

Additional observations from a re-analysis of the deposited data

How the results depend on the processing

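No paired analysis was possible because no result comes from a test and the input libraries have no list of their own. Of 65 alternative values, 34 stayed within the spread, the interval or 1.5 times the count, and 31 moved. Values with neither spread nor interval count as moved at any change, and those from 1 replicate stay within the SD of 2 by construction. The arms' share within domains, 15.4%, became 17.3% with a limit of 8 kb, 8.77% with 20 kb, 19.2% with combined regions 500 bp or less apart joined, 16.4% without X and 15.3% with the higher-scoring 50% of the list. In the same order the median gap of 55900 bp became 37771, 197095, 42888, 51811 and 56153 bp, and the variance over mean of the window counts, 1.36, became 1.51, 1.29, 1.43, 1.37 and 1.36. With windows of 500 kb it was 1.25 and with 2 Mb 1.61. At 20 kb 257 domains were left. The share of gaps of 10 kb or less, 22.3%, became 27.7% at 8 kb and 14.6% at 20 kb. It was 14.2% for gaps of 5 kb or less and 30.2% for 20 kb or less. The covered share, 90.2%, became 88.9% at 8 kb, 93.1% at 20 kb and 84.3% with joined combined regions. Pieces per domain, 2.12, became 2.50 at 20 kb and 2.67 with joined combined regions. With joined replicate regions they fell to 1.53, and 63.2% of domains were a single piece. The share of one replicate's bare bases that were bare in the other too, a mean of 34.1% over the replicates, became 44.6% with joined combined regions. With at least 50% covered in each replicate, 96.1% of domains were found in both. Over the replicates left out in turn, the covered share ran from 89.7% to 90.6%, pieces per domain from 1.86 to 2.37 and domains in 1 piece from 29.6% to 51.9%. The cause of these moves was not tested. Depth is unknown, so what it limits was not tested.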
